A study of Homo sapiens with 18 samples.

Results

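Oncofetal let-7 targets are genes that are active in the embryo, mostly silent in adult tissue and often active again in tumors, and whose mRNAs are known to be repressed by the let-7 microRNAs. The 10 genes described here were HMGA1, HMGA2, IGF2BP1, IGF2BP2, IGF2BP3, LIN28B, HIC2, NR6A1, ARID3B and E2F5. They were chosen by name from the 58302 genes of the deposited table, and all 10 were found. Of these, 8 were expressed in the cells, while IGF2BP1 and LIN28B were at or near 0 in every library.

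Dicer1 cuts the hairpin precursors of microRNAs, let-7 among them, into the mature form that is loaded into Argonaute. The loaded let-7 pairs with target mRNAs mainly through its seed, the bases near its 5′ end, and the mRNA is then less stable and less translated. Because let-7 rises during differentiation, its targets include several proteins of fetal growth, and LIN28B in turn blocks the maturation of let-7.

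TPC1, a cell line from a papillary thyroid carcinoma, and D11, a Dicer1 (+/-) line derived from it by CRISPR-Cas9, were studied by RNA sequencing. The labels give TPC1 as wild type at Dicer1. Each line was left non-transfected (NT), given a negative control siRNA (NC) or given an siRNA that targets Dicer1 (siDicer), at 5 nM, and RNA was collected on day 4. There were 3 libraries in each of 6 groups, 18 in all. Per line, NT was pooled with NC into a control group of 6 libraries. D11 is 1 clone, so a difference between D11 and TPC1 cannot be told apart from a difference between clones. The study's methods describe its experiments as repeated independently, but the labels do not tie the libraries to separate cultures, so p-values measure only the spread between these libraries. Small RNA was not measured here, and no let-7 level is known from these data.

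Values are normalised read counts per 20 M reads, where M is the SI prefix mega. The depth recovered from the values was 11.3 to 23.2 M reads per library. DICER1 was 15.9% of the control mean in TPC1 siDicer and 28.8% in D11 siDicer, and in both lines the siDicer libraries were all below the control libraries. DICER1 in NC minus NT was a log2 difference of 0.58 in TPC1 (limma adjusted p 0.250) and 0.71 in D11 (limma adjusted p 0.135), which passed in D11 with the replicate block (limma adjusted p 0.0247). The level in siDicer was thus 0.196-fold of NT and 0.131-fold of NC in TPC1, and 0.376-fold and 0.229-fold in D11. Replicate 2 kept the most DICER1 in both lines, 21.1% in TPC1 and 38.1% in D11. For 12 of the 18 samples the title and the description give different groups, and the descriptions were followed. Of defining thyroid genes, PAX8 was high (7361 to 14886), while NKX2-1 was 0 in every library and TSHR and SLC5A5 did not exceed 2. In bulk RNA, fewer cells expressing a gene and less RNA per cell cannot be told apart.

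The let-7 seed and its matches in these genes are shown first, because the differences are later set beside them. RefSeq (GRCh38.p14) lists 11 mature microRNAs with the let-7 seed, bases 2 to 8, of which 9 carry the name let-7 or miR-98. Capitals mark the seed in 3 of them. hsa-let-7a-5p is encoded at 3 loci, one of them chr9:94175962-94175983 on the plus strand, hsa-let-7i-5p at chr12:62603691-62603712 on the plus strand and hsa-miR-98-5p at chrX:53556299-53556320 on the minus strand.
hsa-let-7a-5p: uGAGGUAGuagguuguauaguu
hsa-let-7i-5p: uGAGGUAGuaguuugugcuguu
hsa-miR-98-5p: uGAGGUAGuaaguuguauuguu

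The 3′ UTR of 1 GENCODE 44 transcript per gene was searched on the sense strand for the complement of this seed. An 8mer is CTACCTCA, a 7mer-m8 is CTACCTC without the last A, and a 7mer-A1 is TACCTCA without the first C, so each position was counted in 1 class. Of 19372 genes with a 3′ UTR, 3.69% held an 8mer and 15.6% held any of the 3 classes. All 10 oncofetal genes held at least 1 match, and 7 held an 8mer. HMGA2 had the most, 7 matches in 2999 bases, of which 1 was an 8mer and 3 were 7mer-m8. NR6A1 had 5 matches with 2 8mers, and HIC2 had 4 with 1 8mer. IGF2BP2 had 3 with 1 8mer, and IGF2BP3 had a single 8mer. IGF2BP1 had 5 with 3 8mers and LIN28B had 5 with 2 8mers. HMGA1, E2F5 and ARID3B had no 8mer: the first 2 had a single 7mer-m8 each, and ARID3B had 1 7mer-m8 and 4 7mer-A1.

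One match of each gene that the results turn on is printed below, 5′ to 3′ in the mRNA sense from GRCh38, with the match in capitals. The sites lie in the 3′ UTR, within an exon. The HMGA2 site is at chr12:65963299-65963322 (plus strand), HIC2 at chr22:21450883-21450906 (plus), NR6A1 at chr9:124522308-124522331 (minus), IGF2BP2 at chr3:185644218-185644241 (minus) and IGF2BP3 at chr7:23311793-23311816 (minus). Those without an 8mer follow, HMGA1 at chr6:34245829-34245852 (plus) and ARID3B at chr15:74598101-74598124 (plus).
HMGA2: ccaacgttcgatttCTACCTCAgc
HIC2: aggaccccctccccCTACCTCAcc
NR6A1: gttgacaaagatgaCTACCTCAat
IGF2BP2: acacacagaagaagCTACCTCAgg
IGF2BP3: gcatttttactcaaCTACCTCAgg
HMGA1: tcctctgttcacaaaCTACCTCtg
ARID3B: tatttcaataaacctCTACCTCtt

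Per kilobase of the transcript searched for sites, HMGA1 had the highest level of the 10 genes in every group, 7328 ± 1414 (SD, n = 3) normalised reads per kilobase in TPC1 NT. HMGA2, IGF2BP2, IGF2BP3 and E2F5 followed, with group means between 329.8 and 1670.4. HIC2, ARID3B and NR6A1 were lowest among the expressed genes, with group means between 15.2 and 86.2. The place of HMGA2 depended on the length chosen. In TPC1 NT it was 704 per kilobase, near IGF2BP2 at 660, by the transcript searched, but 192 against 531 when all exons of each gene were merged.

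HMGA2, an architectural chromatin protein that bends AT-rich DNA and is the best known let-7 target, was higher in siDicer in both lines. The TPC1 libraries gave 2738, 3466 and 2494 normalised reads (NT), 4168, 3467 and 3540 (NC) and 6073, 5951 and 5570 (siDicer). The D11 libraries gave 2311, 3504 and 2846 (NT), 4724, 4118 and 4175 (NC) and 7759, 6475 and 6397 (siDicer). Every siDicer library lay above every control library of its line, and every NC library also lay above every NT library, in TPC1 by a margin of 1 (3467 against 3466). Against the control group the log2 difference was 0.84 (SE 0.14, limma adjusted p 0.00512) in TPC1 and 0.96 (SE 0.19, limma adjusted p 0.00402) in D11. Part of the distance from NT was therefore also present in NC. Against NT alone the log2 difference was 1.03 in TPC1 and 1.27 in D11, and against NC alone 0.66 in both lines, all past the test. In D11 the call against NC fell under the fold change minimum without siDicer replicate 1 (log2 0.57).

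HMGA1, a related chromatin protein, followed another course. With TPC1, NT gave normalised read counts of 10975, 16056 and 15178, NC of 5503, 11660 and 7071 and siDicer of 4417, 10055 and 4479. With D11, NT gave 10816, 14751 and 15833, NC gave 6243, 11550 and 7559 and siDicer gave 4396, 6184 and 5349. In TPC1 the siDicer and control libraries overlapped, and replicate 2 was the highest library of both NC and siDicer. In D11 every siDicer library lay below every control library. Against NT, HMGA1 fell by 1.25 on the log2 scale in TPC1 (SE 0.34, limma adjusted p 0.0386) and by 1.37 in D11 (SE 0.21, limma adjusted p 0.000956). Against NC the log2 differences of -0.40 in TPC1 (limma adjusted p 0.515) and -0.64 in D11 (limma adjusted p 0.0673) did not pass. The NC libraries themselves differed from NT by -0.85 in TPC1 and -0.74 in D11 on the log2 scale, which did not pass either (limma adjusted p 0.385 and 0.126). With the replicate number as a block, 3 of these calls changed: D11 siDicer against NC passed (limma adjusted p 0.00183), and so did NC against NT in TPC1 (limma adjusted p 0.0186) and in D11 (limma adjusted p 0.00396). The fall against NT in TPC1 was lost when any of 6 of the 9 TPC1 libraries was left out.

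**Figure D1:**
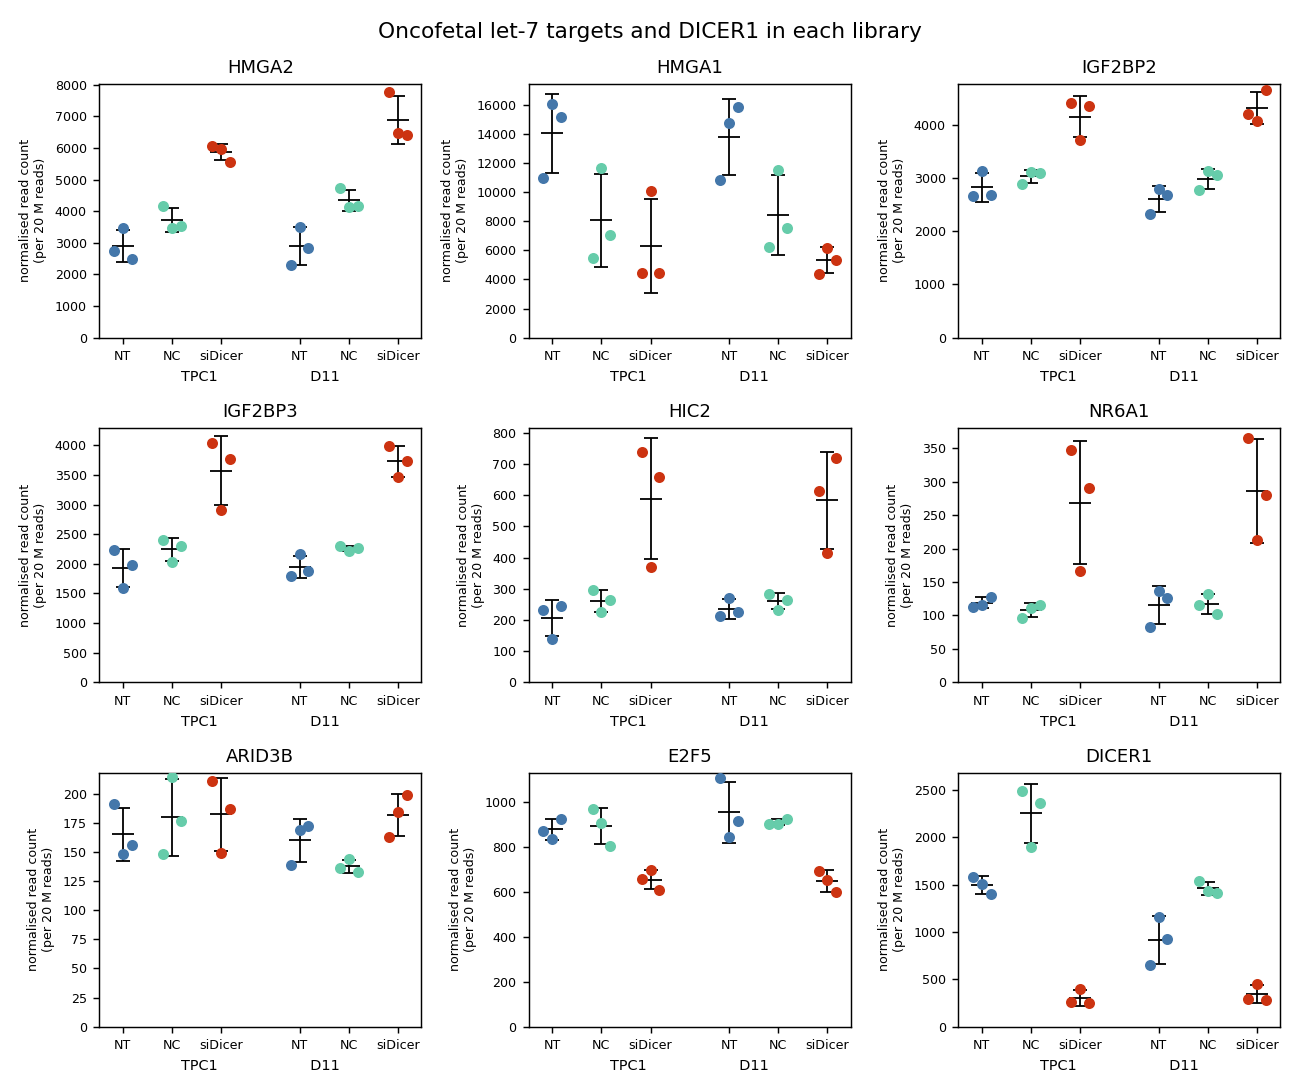
Normalised read count per 20 M reads (y axis, linear from 0) of the 8 expressed genes and DICER1 in NT, NC and siDicer of TPC1 and D11 (x axis). Each point is 1 library, and bars give the mean ± SD of 3 libraries. The siDicer libraries of HMGA2, IGF2BP2, IGF2BP3, HIC2 and NR6A1 sit above all control libraries of their line, those of E2F5 and DICER1 below, and HMGA1 is lower in NC as well as in siDicer.

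The IGF2BP proteins bind mRNA and protect it from decay, among others the mRNAs of IGF2 and of several oncogenes. IGF2BP3 held 2228, 1588 and 1983 normalised reads in TPC1 NT, NC held 2398, 2027 and 2304, and siDicer 4043, 2913 and 3764. Those of D11 stood at 1799, 2163 and 1878 for NT, 2292, 2217 and 2273 for NC and 3988, 3463 and 3739 for siDicer. The siDicer libraries lay above the control libraries in both lines, and replicate 2 was the lowest of them. The log2 difference from the control group was 0.77 (SE 0.14, limma adjusted p 0.00668) in TPC1 and 0.83 (SE 0.10, limma adjusted p 0.000303) in D11.

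IGF2BP2 had the smallest difference of the 5 genes that lay above all controls. Normalised read counts in TPC1 stood at 2670, 3140 and 2675 for NT, 2898, 3109 and 3103 for NC and 4403, 3721 and 4348 for siDicer. Across D11, NT held 2321, 2799 and 2691, NC 2772, 3125 and 3067 and siDicer 4214, 4078 and 4659. The ranges did not overlap in either line. In D11 it rose by 0.63 on the log2 scale against the control group (SE 0.10, limma adjusted p 0.00141). In TPC1 the log2 difference of 0.50 (SE 0.089, limma adjusted p 0.00605) was 1.42-fold, under the minimum of 1.5-fold that a call required. The D11 call also fell under that minimum without NT replicate 1 (log2 0.58) or without siDicer replicate 3 (log2 0.57). IGF2BP1 was 0 in 14 libraries and 1 to 3 in the other 4, at or under the value of 3 reads, which was 2.58 to 5.32 depending on the library.

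HIC2 and NR6A1, both repressors of transcription, showed the largest rises. NR6A1, also called GCNF, is an orphan nuclear receptor that silences pluripotency genes in the embryo. HIC2 held 233, 140 and 243 normalised reads in TPC1 NT, NC held 295, 225 and 265, and siDicer 740, 370 and 657. The D11 libraries gave 211, 271 and 224 (NT), 283, 231 and 265 (NC) and 614, 416 and 721 (siDicer). The log2 difference from the control group was 1.31 (SE 0.25, limma adjusted p 0.00877) in TPC1 and 1.21 (SE 0.17, limma adjusted p 0.000583) in D11. NR6A1 held 112, 116 and 128 normalised reads in TPC1 NT, NC held 96, 111 and 116, and siDicer 348, 167 and 291. With D11, NT gave 83, 136 and 126, NC gave 115, 132 and 102 and siDicer gave 366, 212 and 280. The log2 difference was 1.18 (SE 0.20, limma adjusted p 0.00541) in TPC1 and 1.28 (SE 0.20, limma adjusted p 0.00103) in D11. For both genes the groups did not overlap, and replicate 2 was the lowest siDicer library in each line.

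E2F5, a member of the E2F family that represses cell cycle genes, was lower in siDicer. Across TPC1, the NT libraries held 872, 835 and 926 normalised reads, NC 967, 904 and 806 and siDicer 655, 698 and 610. Those of D11 stood at 1105, 843 and 913 for NT, 902, 902 and 926 for NC and 694, 651 and 598 for siDicer. Every siDicer library lay below every control library in both lines. The log2 differences of -0.43 in TPC1 (SE 0.088, limma adjusted p 0.0106) and -0.52 in D11 (SE 0.10, limma adjusted p 0.00433) were under the minimum fold change, so E2F5 was not called in either line. An exon of the protein-coding gene RBIS overlaps E2F5 on the opposite strand. Whether reads were counted by strand is not given in the sources used here, so reads of RBIS and E2F5 cannot be told apart where they overlap. MALSU1 overlaps IGF2BP3 and HMGA2-AS1 overlaps HMGA2 in the same way.

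ARID3B, a DNA-binding protein of the ARID family, did not pass the test. The TPC1 libraries held 191, 148 and 156 normalised reads for NT, 148, 214 and 177 for NC and 211, 149 and 187 for siDicer. Across D11, NT held 139, 169 and 172, NC 136, 144 and 133 and siDicer 163, 184 and 199. The siDicer libraries overlapped the control group in both lines, but in D11 they all lay above the NC libraries. The log2 difference from the control group was 0.08 (95% interval -0.27 to 0.43) in TPC1 and 0.29 (95% interval -0.01 to 0.59) in D11. From NC alone it was 0.40 in D11 (95% interval 0.07 to 0.72, limma adjusted p 0.0976) and 0.02 in TPC1 (95% interval -0.39 to 0.44). LIN28B, which binds let-7 precursors and blocks their maturation, was 0 in all 18 libraries, so no fold change can be given. A count of 0 allows up to 3 reads.

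**Figure D2:**
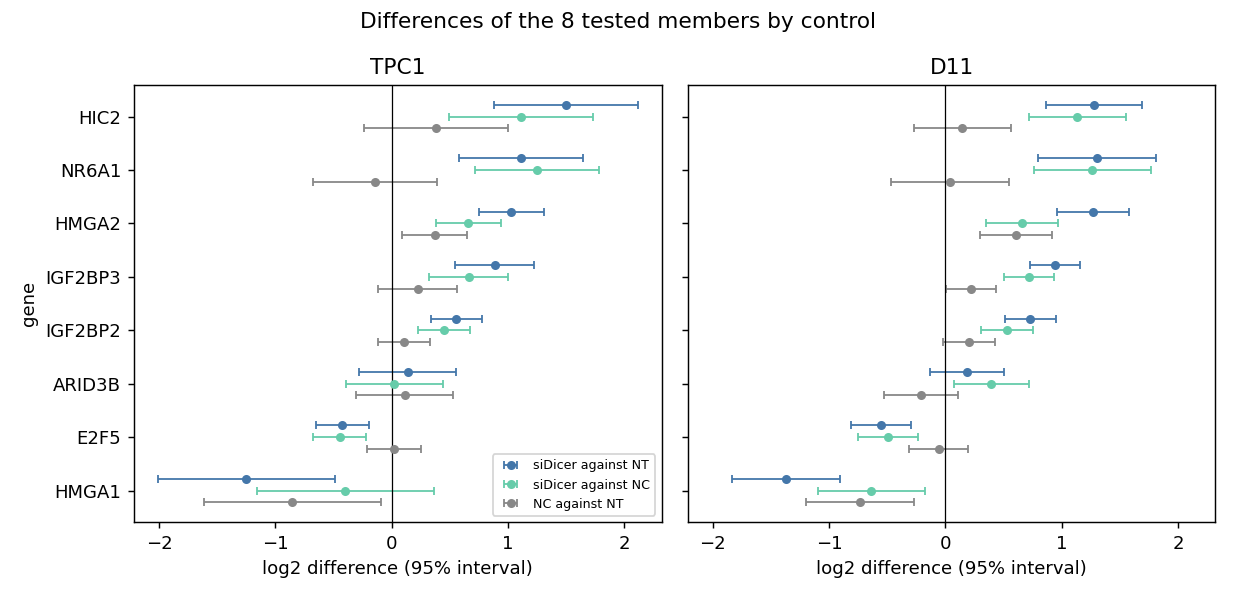
Log2 difference (x axis) of the 8 tested genes (y axis) for siDicer against NT, siDicer against NC and NC against NT in TPC1 and D11. Points are limma estimates and bars their 95% intervals. HIC2, NR6A1, HMGA2, IGF2BP3 and IGF2BP2 lie right of 0 against either control, while HMGA1 lies farther from 0 against NT (-1.25 and -1.37) than against NC (-0.40 and -0.64).

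Over the genes together, 4 of 8 tested were called higher and 0 lower in TPC1 against the control group, where 3.22% of all 18475 tested genes were called higher and 4.16% lower. In D11, 5 were called higher (IGF2BP2 in addition) and HMGA1 lower, where 5.26% and 6.75% of 18413 genes were called. The HMGA1 call was lost without D11 siDicer replicate 1 (limma adjusted p 0.0713) or replicate 3 (limma adjusted p 0.0571). In TPC1, HMGA1 was called lower in a fit of all 18 libraries (limma adjusted p 0.0395) and without siDicer replicate 2 (limma adjusted p 0.0405). The median log2 difference of the 8 genes was 0.64 in TPC1 and 0.73 in D11, against -0.04 over all genes in both lines. All siDicer libraries lay above all 6 controls for 5 of 8 genes in each line, against 7.62% of all genes in TPC1 and 11% in D11. All lay below for E2F5 in TPC1, and for E2F5 and HMGA1 in D11, against 9.91% and 14.1% of all genes. In TPC1 the number called higher dropped to 2, HMGA2 and NR6A1, without siDicer replicate 1 or without siDicer replicate 3. HIC2 and IGF2BP3 then had limma adjusted p of 0.0511 to 0.0629. The number called higher among all genes fell in these refits as well, from 594 to 159 and 168.

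The choice of control changed few of these calls. Against NT, 4 genes were called higher and HMGA1 lower in TPC1, with 4.37% and 4.22% of all genes called. In D11, 5 were called higher and HMGA1 lower, with 8.47% and 8.6% of all genes called. Against NC, 4 genes were called higher and 0 lower in TPC1, where 2.4% and 2.96% of all genes were called, and likewise 4 and 0 in D11, where 3.52% and 4.84% were called. The same 4 genes, HMGA2, IGF2BP3, HIC2 and NR6A1, were called in each of these 6 comparisons, which share their siDicer libraries. In TPC1 some or all of these calls were lost when single libraries were left out, and calls over all genes fell as well. Against NC, none of the genes was called without NC replicate 3, siDicer replicate 1 or siDicer replicate 3, 1 was called without NC replicate 1 and 2 without NC replicate 2. Against NT, 3 were called without NT replicate 1 or 3, and 2 without siDicer replicate 1 or 3. Over all genes, the calls against NC fell in these refits from 444 higher and 546 lower to 112 to 286 and 141 to 329. Those against NT fell from 807 higher and 779 lower to 241 to 563 and 219 to 470. The log2 difference of HMGA2 against NC stayed between 0.61 and 0.74 with any TPC1 library left out.

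NC against NT called none of the 8 genes in either line by limma without the replicate block. The share called among all genes was then 0.325% in TPC1 and 0.94% in D11. At an unadjusted p under 0.05 were HMGA1 and HMGA2 in TPC1, and HMGA1, HMGA2 and IGF2BP3 in D11. HMGA2 in D11 came nearest to the threshold, with a log2 difference of 0.61 (limma adjusted p 0.0684), and passed with the replicate block (limma adjusted p 0.0250). HMGA1 passed with the block in both lines (limma adjusted p 0.0186 in TPC1 and 0.00396 in D11). Calls over all genes were then 266 higher and 224 lower in TPC1, and 329 and 174 in D11.

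The loss of 1 Dicer1 allele was examined in the 12 control libraries. None of the 8 genes was called between D11 and TPC1 by limma, where 1.02% of 18814 genes were called, and none was at an unadjusted p under 0.05. The log2 differences were between -0.20 for ARID3B and 0.11 for HIC2. The 95% interval was -0.13 to 0.34 for HMGA2, -0.16 to 0.20 for IGF2BP3 and -0.27 to 0.30 for NR6A1, which leaves room for small differences. In the same libraries DICER1 was lower in D11 by a log2 difference of -0.68 (limma adjusted p 0.00561), and this call was lost under the fold change minimum without D11 NT replicate 1 (log2 -0.58).

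The response to siDicer was also compared between the lines. The interaction was called for none of the 8 genes and for 0% of 19181 genes by limma, of which 133 had an unadjusted p under 0.05. None of the 8 genes was among these. The difference of the log2 differences, D11 minus TPC1, was 0.12 for HMGA2 (95% interval -0.42 to 0.66), 0.10 for NR6A1 (95% interval -0.51 to 0.72) and -0.10 for HIC2 (95% interval -0.76 to 0.56).

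The siDicer libraries differed among themselves. In TPC1, HIC2 lay 1.70, 0.70 and 1.52 above the control mean on the log2 scale in replicates 1, 2 and 3, and NR6A1 lay 1.62, 0.56 and 1.36 above it. HMGA1 lay at -1.23, -0.04 and -1.21. Replicate 2 was thus nearest to the controls for these 3 genes and kept the most DICER1 (21.1% of control, against 13.6% and 13.1%). HMGA2 did not follow this order, with 0.90, 0.87 and 0.77 in TPC1 and 1.14, 0.88 and 0.87 in D11. In D11 replicate 2, with DICER1 at 38.1%, HIC2 lay at 0.76 and NR6A1 at 0.89, the lowest of the 3 siDicer libraries, and HMGA1 at -0.77, the nearest to the controls. ARID3B (0.14) and E2F5 (-0.42) were nearest to the controls in D11 replicate 1 instead. Over all genes, replicate 2 was the library farthest from the other two in each TPC1 group, whereas in D11 NT and D11 siDicer it was replicate 1. The part of DICER1 or of the replicate number in these differences was not tested.

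**Figure D3:**
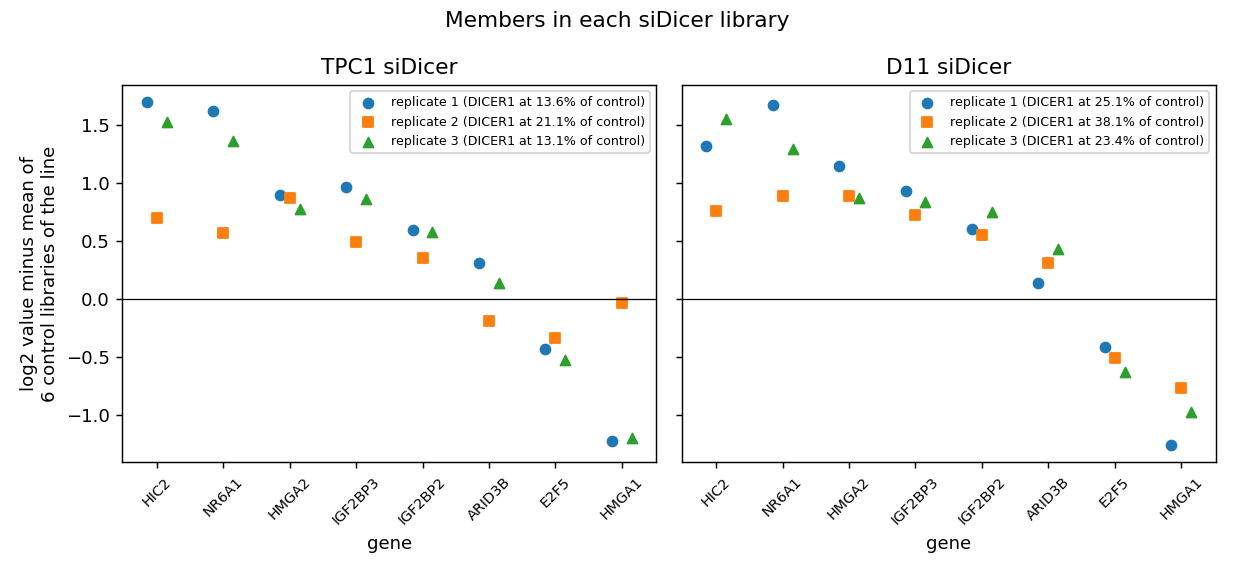
Log2 value of each of the 8 genes in each siDicer library minus the mean of the 6 control libraries of the line (y axis), by gene (x axis), with replicates as symbols and the DICER1 level of each library in the key. In TPC1, replicate 2 lies nearest to 0 for HIC2 (0.70), NR6A1 (0.56) and HMGA1 (-0.04).

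The matches to the let-7 seed and the differences were then set side by side. The 5 tested genes with an 8mer had log2 differences of 0.50 to 1.31 (TPC1) and 0.63 to 1.28 (D11). The 3 tested genes without one, ARID3B, E2F5 and HMGA1, had 0.08, -0.43 and -0.82 in TPC1. In D11 ARID3B had 0.29 and E2F5 -0.52, while HMGA1 was 0.499-fold of the control group (limma adjusted p 0.0138, a call lost without siDicer replicate 1 or 3). The number of matches did not give the same order: ARID3B with 5 matches had 0.08 in TPC1, and IGF2BP3 with 1 match had 0.77. Over the other tested genes with an 8mer, the median log2 difference was 0.02 in TPC1 (543 genes) and 0.03 in D11 (538 genes), against -0.04 and -0.06 in genes with no match (10774 and 10709 genes). Of these 8mer genes, 25 were called higher in TPC1 and 42 in D11. The shares were 4.604% against 3.221% of genes with no match in TPC1, and 7.81% against 5.29% in D11. In each line 21 of the 8mer genes were called lower. These were 3.867% against 4.622% of genes with no match in TPC1, and 3.903% against 7.386% in D11. The 3′ UTRs of the 8mer genes were longer, with a median of 3150 against 1042 bases in D11. In D11, 8mer genes were called higher less often than genes with no match in the 4 bins of UTR length up to 4000 bases. From the shortest bin to the longest of these, the shares were 0% against 2.42%, 2.63% against 3.81%, 5.71% against 6.40% and 7.64% against 7.86%. The shortest bins held only 20 and 38 8mer genes. Among 3′ UTRs over 4000 bases the share was 10.6% against 9.73%. In TPC1 the direction differed between bins. The shares there were, in the same order, 0% against 1.91%, 2.5% against 2.02%, 1.92% against 3.68%, 5.66% against 4.70% and 5.91% against 5.87%. The part of UTR length in the difference between the classes was not tested. Genes with 2 or more 8mer or 7mer-m8 matches had a median of 0.12 in TPC1 (164 genes) and 0.16 in D11 (163 genes). For NC against NT, the 8mer, no-match and 2-or-more medians were 0.096, 0.00067 and 0.16 in D11, and 0.048, 0.0061 and 0.072 in TPC1. For siDicer against NC they were -0.015, -0.058 and 0.091 in D11, and -0.014, -0.041 and 0.079 in TPC1. A difference between the classes was thus also present between NC and NT. Its cause was not tested. A match is a description of the sequence and does not show that let-7 acts there.

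**Figure D4:**
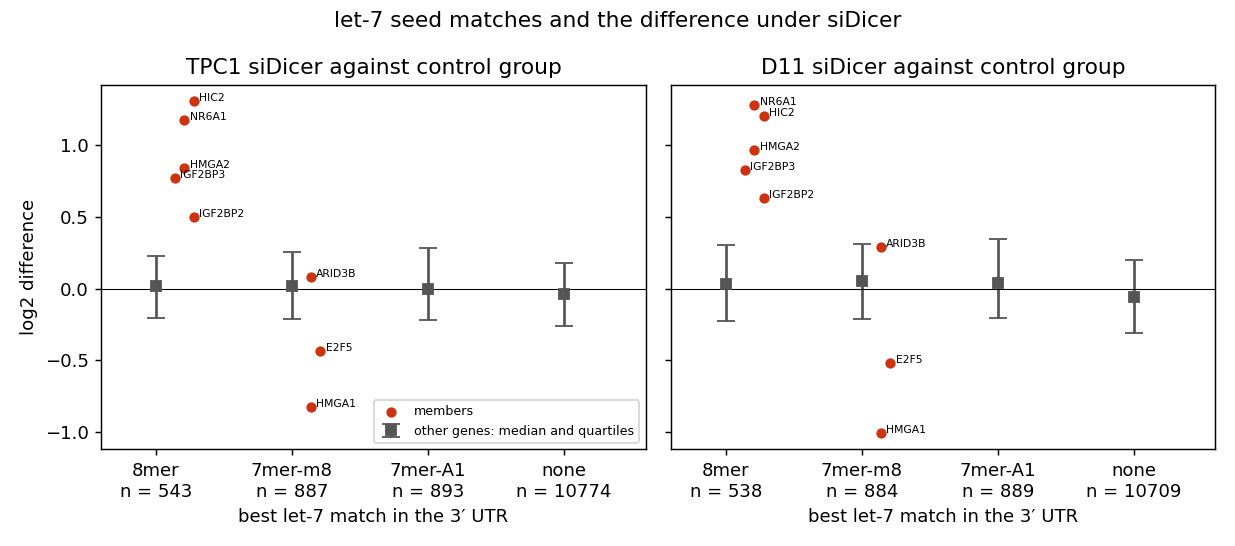
Log2 difference of siDicer from the control group (y axis) by the best let-7 match in the 3′ UTR (x axis) in TPC1 and D11. Squares and bars give the median and quartiles of all other tested genes of a class, and red points the 8 genes. HMGA2, IGF2BP2, IGF2BP3, HIC2 and NR6A1 lie above the upper quartile of the 8mer class, and HMGA1 and E2F5 below the lower quartile of the 7mer-m8 class.

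Genes around the let-7 pathway were taken from lists. Of 12 genes that set let-7 levels, 11 were tested in TPC1 and 10 in D11, and none was called against the control group by limma in either line. Against NT alone, TRIM25, a ubiquitin ligase, was called higher in D11 (log2 difference 0.62, limma adjusted p 0.000563). LIN28A, the relative of LIN28B, did not exceed 2 in any library. Of 37 other reported let-7 targets, 4 of 33 tested were called higher in TPC1 and 6 of 32 in D11 against the control group, with 0 lower, where 3.22% and 5.26% of all tested genes were called higher. NC against NT also called 2 of the 32 higher in D11, where 0.94% of all genes were called. These were CDK6, a cell cycle kinase (log2 difference 1.00, limma adjusted p 0.00832), and THBS1, a matrix glycoprotein (0.92, limma adjusted p 0.0460). CDK6 rose to a similar degree in D11 siDicer against the control group (0.93, limma adjusted p 0.0264), but against NC alone its log2 difference of 0.43 did not pass (limma adjusted p 0.0511). ARID3A, a relative of ARID3B that is also on this list, rose most. The TPC1 libraries held 166, 217 and 210 normalised reads for NT, 213, 321 and 311 for NC and 987, 441 and 844 for siDicer, a log2 difference of 1.61 (limma adjusted p 0.00460). In D11 the log2 difference was 1.71 (limma adjusted p 0.000207). Its 3′ UTR held 3 matches, 1 of them an 8mer. ERCC6, a DNA repair factor, rose by 0.98 in TPC1 and 0.97 in D11 on the log2 scale, and PLAGL2, a zinc finger transcription factor, by 0.82 and 0.81. IGF1R, the receptor of IGF1, rose in D11 by 0.66 (limma adjusted p 0.0189) and had a log2 difference of 0.50 in TPC1 (limma adjusted p 0.112).

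Of 8 transcripts that hold let-7 hairpins, 6 were in the table and were tested. In each line 1 of the 6 was called higher against the control group, where 3.22% (TPC1) and 5.26% (D11) of all genes were. None of them was called against NT alone, where 4.37% and 8.47% of all genes were called higher. With NC alone as control, 1 was called higher in each line, where 2.4% and 3.52% of all genes were. WDR82, whose gene holds let-7g, rose in D11 by 0.62 on the log2 scale (limma adjusted p 0.000583) and had a log2 difference of 0.49 in TPC1 (limma adjusted p 0.00951), under the fold change minimum. MIR99AHG rose in TPC1 by 0.65 (limma adjusted p 0.0335) and had 0.45 in D11 (limma adjusted p 0.152). Of 12 other oncofetal genes, 4 were tested in TPC1 and 3 in D11, and none was called against the control group. Against NT alone, PEG10 was called higher in D11 (log2 difference 1.15, limma adjusted p 0.0317). H19, GPC3, DLK1 and CEACAM5 did not exceed 2. Among the relatives of the oncofetal genes, ARID3A was called in both lines, while HIC1 (log2 difference 0.39 in TPC1 and 0.25 in D11) and E2F4 (-0.01 and -0.06) were not.

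Markers of other cell types were examined beside these results. Of 8 markers of immune, endothelial and fibroblast cells, CD3E and DCN were 0 in every library. Their summed level was 926 to 2089 in the TPC1 control libraries and 1307 to 2181 in TPC1 siDicer, and 773 to 1296 and 857 to 1001 in D11, of which CD68 gave the most. LUM, a matrix proteoglycan, rose in TPC1 by 1.86 on the log2 scale (limma adjusted p 0.00126), and in D11, where it was too low to be tested, it was 0 to 2 in the control libraries and 26, 2 and 14 in siDicer. Of 6 epithelial markers, 3 were tested in each line. KRT7 alone was called, higher in TPC1 (log2 0.82, limma adjusted p 0.0231), while the median of the 3 was 0.0045 in TPC1 and -0.24 in D11. In D11 the 6 summed to 12283 to 14110 in siDicer, below the 14535 to 20467 of NT and 14749 to 16670 of NC. Of 8 thyroid markers, 4 were tested in each line. HHEX, a thyroid transcription factor, alone was called, lower in D11 by 0.63 (limma adjusted p 0.0176), while the median of the 4 there was 0.098. Neither gene was called against NC alone. The part of these genes in the results above was not tested.

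The genes most like the oncofetal group over the libraries were found by correlation. The median of the 8 genes was taken in each library after centring on the line, and 12500 other genes with a mean of at least 100 were ranked by Pearson's r with it over 18 libraries. RBFOX2, a splicing factor, had r of 0.98, VCL, which encodes the focal adhesion protein vinculin, had 0.98, ZNF827 had 0.98, PLEKHA7 had 0.98 and CAB39 had 0.97. VCL went from a control mean of 12118 to 19172 in TPC1 and from 11324 to 18634 in D11. The libraries share lines and transfections, so these values describe likeness over the groups.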

How the data were processed

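Per the labels and the methods of the study, the authors prepared stranded poly-A libraries, aligned reads with STAR 2.5.3a to GRCh38, and counted them per gene with HTSeq 0.9.1. The authors deposited 1 table of 58302 genes by 18 libraries, whose values are a normalised score: reads scaled to 20 M per library and rounded up. The column totals were 20010707 to 20018484. The value of 1 read, 0.861 to 1.77, was recovered from the steps between values and gave the depth. Intervals and limits cover counting error or library spread only.

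Values were taken as log2(value + 1) and fitted with limma 3.58.1 in R 4.3.3 (lmFit, eBayes with trend) over all genes that reached 10 in 3 or more libraries of the fit. The pseudocount understates changes of low genes. A call required 1.5-fold or more and a Benjamini-Hochberg adjusted p under 0.05. All tests were two-sided. The fits were tested on simulated data. Alternatives were RLE and upper quartile scaling, other filters and pseudocounts, no fold change minimum, a fit of all libraries, a replicate block, NT and NC as separate groups, groups from the titles, voom on recovered reads and leaving out each library.

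The members and gene lists were chosen with earlier results of these data known. Besides the 10 genes and DICER1, the text names up to 4 called genes of each list and the 5 most similar genes. Markers and relatives at or near 0 are named as such.

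Pairing by replicate number was examined through the deviations of libraries from their group means, since the labels give no meaning for a number. Over 12508 genes with a mean of at least 100, the gene set used first, same-numbered libraries exceeded a correlation of 0.1 in 9 of 9 pairs in TPC1 (0.109 to 0.676) and 8 of 9 in D11 (0.0752 to 0.722). The check was then repeated, after that result was seen, over the 18037 genes tested in both lines, where 9 of 9 pairs exceeded it in each line (TPC1 0.107 to 0.550, D11 0.107 to 0.524). Between the lines, same-numbered libraries exceeded it in 23 of 27 pairs with either gene set. Pairs of different numbers did so in 11 of 54 with the first set and 4 of 54 with the second. The numbers were therefore taken to pair the TPC1 libraries, and for D11 the answer depends on the gene set. The main p-values come from fits without the block. With the block, D11 against TPC1 and the interaction still called 0 of the 8 genes. Blocked values are given for both lines where they change a call. The length used for levels per kilobase was also changed after the values were seen, from all exons merged to the transcript searched for sites, and both are given where they differ in order.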

Additional observations from a re-analysis of the deposited data

Results flagged for a closer look

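In the control libraries of D11, NT replicate 1 stood apart in E2F5, with a normalised read count of 1105 against 843 to 926 in the other 5. Its distance to the nearest library was 0.683 of the range of the 6, above the critical value of 0.625. Chance alone would set apart about 1 in 20 of such groups, and 18 were examined.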

How the results depend on the processing

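Of 736 values of the 8 genes recomputed under other scalings, filters, pseudocounts, fits and voom, with the groups of the descriptions, 729 kept their direction and their side of the threshold, 7 passed it in addition and 0 were lost or reversed. RLE and upper quartile scaling moved the median of all genes by less than 0.1 on the log2 scale. Dropping the fold change minimum added E2F5 in each siDicer comparison, and IGF2BP2 where it was not called. The replicate block, which takes the pairing by number into account, left the number of called genes at 4 in TPC1 and 6 in D11 against the control group. Calls over all genes rose there from 594 higher and 769 lower to 781 and 1015 in TPC1. In D11 they rose from 969 and 1243 to 1063 and 1380. The block gave 1 called gene for NC against NT in TPC1 and 2 in D11, from 0. All calls of that comparison rose in TPC1 from 19 higher and 41 lower to 266 and 224. In D11 they rose from 93 and 80 to 329 and 174. A fit of all 18 libraries called HMGA2 in D11 NC against NT and HMGA1 in TPC1 against the control group. The cause of these changes was not tested.

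Groups from the titles, which mix the conditions, gave 0 called genes in either line. They turned the log2 difference in TPC1 to -0.17 for HMGA2 and -0.013 for ARID3B, and in D11 to 0.065 for HMGA1, -0.076 for HMGA2, -0.017 for IGF2BP3 and -0.0065 for NR6A1.

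With each library left out in turn, 2 to 5 genes were called in TPC1 against the control group, 2 to 6 against NT and 0 to 4 against NC. In D11 the numbers were 4 to 6, 6 to 7 and 3 to 5, and 0 to 1 for NC against NT, where D11 NT replicate 2 and D11 NC replicate 2 each gave 1 when left out. Values that changed sign were all uncalled. For siDicer in TPC1, ARID3B ranged from -0.032 to 0.22 against the control group and from -0.11 to 0.16 against NC. For NC against NT in TPC1, ARID3B ranged from -0.019 to 0.25 and E2F5 from -0.039 to 0.092. In D11, NR6A1 ranged from -0.18 to 0.18 and E2F5 from -0.14 to 0.053. For D11 against TPC1, HMGA1 ranged from -0.087 to 0.16, IGF2BP3 from -0.043 to 0.066, HIC2 from -0.015 to 0.16 and NR6A1 from -0.035 to 0.12. For the interaction, HMGA1 ranged from -0.38 to 0.21, HMGA2 from -0.00039 to 0.21, IGF2BP3 from -0.084 to 0.15, HIC2 from -0.40 to 0.13 and NR6A1 from -0.21 to 0.32.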
